A study of Homo sapiens with 9 samples.

Results

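Transcripts of 5 genes of the plasminogen activation system were followed in IMR90 cells, a human fetal lung fibroblast line with a limited lifespan in culture. The genes were taken by name and comprise the activators PLAU and PLAT, the receptor PLAUR and the inhibitors SERPINE2 and SERPINB2, that is 5 of the 64253 genes counted in the files. Each symbol had a single identifier, and all 5 were among the 16561 genes that passed the filter on low counts. The set does not hold every inhibitor of plasminogen activators, so the balance of activators and inhibitors as a whole was not analysed here. The 9 libraries fell into 3 groups of 3, with replicates a, b and c. Control cells carried the pLKO.1 lentiviral vector, which the sample labels call empty and the treatment text calls a GFP vector. The shRRM2 cells carried a hairpin against RRM2, the small subunit of the enzyme that makes deoxyribonucleotides, and their label is "Senescence". The shRRM2/shp16 cells carried that hairpin and another against p16 (the CDKN2A product), and their label is "Senescence-bypass". All groups were kept at 2% oxygen, were used at population doubling 30, were infected on 2 occasions 24 hours apart, and were selected with 3 ug/mL puromycin for 7 days. RNA was sequenced after removal of ribosomal RNA, with a kit that keeps the strand. Each gene was targeted with 1 hairpin, and no group carried the p16 hairpin alone.

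Plasminogen is an inactive precursor that circulates in blood and is cut into plasmin, a broad-acting protease that dissolves fibrin and degrades matrix. The cut is made by tissue-type activator (tPA, from PLAT), which works best on fibrin, or by urokinase-type activator (uPA, from PLAU), which is held at the cell surface by its receptor uPAR (from PLAUR). Serpins are suicide inhibitors that trap such proteases, and several members of this system belong to the secretory program described in senescent fibroblasts.

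The short stretches of genome below are shown because they come from the 2 windows, among those searched, that hold an AP-1 motif. Their genes, PLAUR and SERPINB2, moved in opposite directions. RefSeq promoters (GRCh38.p14) were matched for 4 of the 5 genes, in 6 windows, since PLAU and SERPINE2 each have more than 1 start. PLAT was not matched. All 6 windows lie inside the GENCODE gene spans given below, because those spans begin upstream of the RefSeq starts used. The 250 bases in front of each start were searched for the AP-1 motif TGANTCA, the cyclic AMP response element TGACGTCA and the NF-kB motif on both strands, and for the TATA box TATAAA on the strand of the gene. Capitals mark matches. The first stretch is chr19:43670338-43670367 on the minus strand, bases 198 to 169 before the PLAUR start. The second is chr18:63887575-63887699 on the plus strand, bases 130 to 6 before the SERPINB2 start.
PLAUR: atcacaactccaTGAGTCAgggccgagcca
SERPINB2: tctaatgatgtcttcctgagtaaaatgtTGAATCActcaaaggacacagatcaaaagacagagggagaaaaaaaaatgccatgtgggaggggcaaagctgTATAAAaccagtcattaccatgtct

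The AP-1 match lay 186 to 180 bases before the PLAUR start and 102 to 96 bases before the SERPINB2 start, and SERPINB2 alone held a TATA box, 30 to 25 bases before its start. Matches for the response element and for the NF-kB motif numbered 0 in the 6 windows. Over the 35116 RefSeq windows of 250 bases, 6.57% held the AP-1 motif, 6.80% the TATA box, 5.21% the NF-kB motif and 1.65% the response element. These are matches of letters and not measured binding, and a window without a match says only that those letters are absent from it.

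In shRRM2 cells both activators and both serpins rose over control and the receptor fell. When the p16 hairpin was also present, PLAU, SERPINE2 and SERPINB2 rose further, PLAT came part of the way down, and PLAUR fell further. The size of these changes ran from a fall to 54.5% of control for PLAUR to a 5.66-fold rise for SERPINB2 in the doubly targeted cells. The RRM2 transcript stood at 12.8% of control in shRRM2 and at 36.5% in shRRM2/shp16. The second step therefore differs in the p16 hairpin and in the RRM2 level, and the parts of these cannot be told apart. Changes were tested with edgeR's quasi-likelihood test and Benjamini-Hochberg adjustment over all tested genes, at an adjusted p under 0.05. All 5 genes passed in each of the 3 comparisons. By the same rule 60.9% of all tested genes were called for shRRM2 relative to control, 61.1% for shRRM2/shp16 relative to shRRM2 and 62.4% for shRRM2/shp16 relative to control, so a call by itself did little to set a gene apart here. How many of all tested genes had groups without overlap was not counted, so the separations given below do not set these genes apart. The comparisons share libraries, and the third is the sum of the other two on the log scale. In bulk RNA, fewer cells expressing a gene and less RNA per cell cannot be told apart. The labels do not say that replicates came from separate cultures, so the p-values measure the spread between these libraries, which may be technical.

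**Figure D1:**
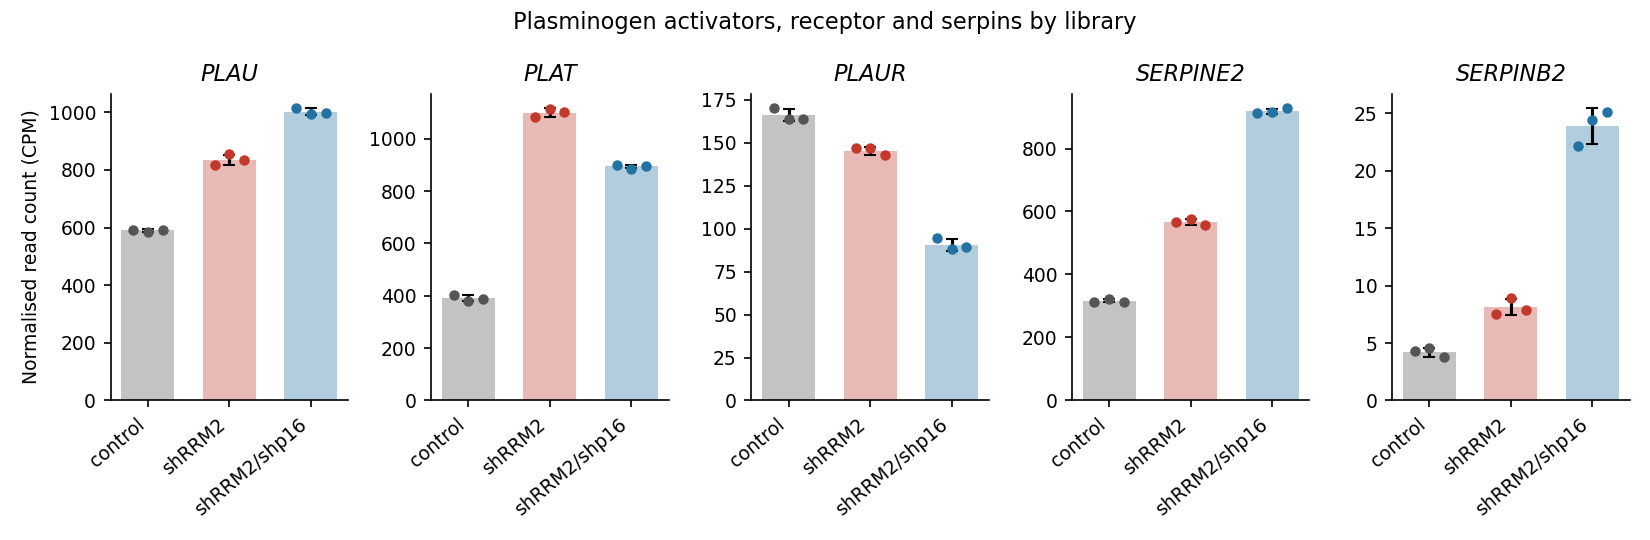
Normalised read count (CPM, linear axis from 0, a separate scale for each gene) of the 5 genes in control, shRRM2 and shRRM2/shp16 libraries; points are single libraries, bars group means and whiskers SD (n = 3 each). PLAT was highest in shRRM2, PLAUR was highest in control, and the other 3 genes were highest in shRRM2/shp16, with no overlap between groups for any gene. The share of all tested genes without overlap was not counted.

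The activators are described first. PLAU (ENSG00000122861; GRCh38 chromosome 10, 73909177 to 73917497, plus strand) encodes uPA. Its normalised count (CPM, reads scaled to a common library size with TMM factors) was 593, 585 and 592 in control replicates a, b and c. The shRRM2 libraries gave 818, 854 and 834 CPM, and the shRRM2/shp16 libraries 1014, 993 and 998 CPM. The 3 groups formed 3 separate steps, each wider than the spread inside a group. The log2 fold change was 0.50 ± 0.03 (SE) in shRRM2 against control (adjusted p 2.7e-21). From shRRM2 to shRRM2/shp16 it was a smaller 0.26 ± 0.02 (adjusted p 2.0e-12), so that the doubly targeted cells held 1.70 times the control level. In that second step 57.4% of all tested genes changed by more than PLAU. The uncharacterised gene C10orf55 overlaps PLAU on the opposite strand and held 25 to 47 reads per library against 9937 to 19947 for PLAU. If strand was not used in counting, reads of this pair cannot be told apart.

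PLAT (ENSG00000104368; GRCh38 chromosome 8, 42175233 to 42207724, minus strand) encodes tPA, and its pattern differed from that of PLAU. Control libraries gave 404, 381 and 388 CPM. The shRRM2 libraries gave 1082, 1115 and 1103 CPM, and the shRRM2/shp16 libraries 899, 886 and 896 CPM. Every shRRM2 library was therefore above every shRRM2/shp16 library, and both groups were far above control. The rise in shRRM2 was 2.81-fold, a log2 fold change of 1.49 ± 0.03 (adjusted p 1.4e-37), and 3.33% of tested genes changed by more. With the p16 hairpin PLAT fell by 0.30 ± 0.03 on the log2 scale (adjusted p 8.5e-14), to 81.3% of the shRRM2 level, which still stood 2.29-fold above control. For this fall of PLAT, the authors' deposited table has -0.23 on the log2 scale (q-value 0.184) and makes no call. Calls for the other 4 genes in the authors' deposited table come with log2 values of 0.29 (PLAU), -0.67 (PLAUR), 0.67 (SERPINE2) and 1.57 (SERPINB2).

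The receptor moved against its ligand. PLAUR (ENSG00000011422; GRCh38 chromosome 19, 43646095 to 43670547, minus strand) encodes uPAR, which has a lipid anchor in place of a membrane-spanning segment and signals through neighbouring integrins and growth factor receptors. It was counted at 170, 164 and 164 CPM in control, at 147, 147 and 143 CPM in shRRM2, and at 94.4, 88.1 and 89.2 CPM in shRRM2/shp16. The groups descended without overlap, in an order opposite to that of PLAU. The step from control to shRRM2 was the smallest change among the 15 tests of these genes, a log2 fold change of -0.19 ± 0.03 (adjusted p 4.9e-06) that left 87.5% of the control level, and 67.3% of tested genes changed by more. The step from shRRM2 to shRRM2/shp16 was larger, at -0.68 ± 0.04 (adjusted p 1.2e-20), which left 62.3%. A 7SL-derived pseudogene, RN7SL368P, lies inside PLAUR on the same strand and held 3 to 20 reads per library against 1660 to 4062 for PLAUR.

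SERPINE2 (ENSG00000135919; GRCh38 chromosome 2, 223975112 to 224039319, minus strand) encodes protease nexin-1, a secreted serpin that inhibits thrombin, uPA, tPA and plasmin and is held on the cell surface and in matrix by heparan sulfate. Control libraries gave 314, 321 and 313 CPM. The shRRM2 libraries gave 567, 576 and 558 CPM, and the shRRM2/shp16 libraries 912, 915 and 928 CPM. It climbed in 2 steps of similar size on the log2 scale, 0.84 ± 0.03 in shRRM2 against control (adjusted p 8.9e-29) and 0.70 ± 0.03 in shRRM2/shp16 against shRRM2 (adjusted p 1.6e-26). The doubly targeted cells held 2.91 times the control level, and 4.65% of tested genes differed by more in that comparison.

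SERPINB2 (ENSG00000197632; GRCh38 chromosome 18, 63871692 to 63903890, plus strand) encodes plasminogen activator inhibitor type 2, a serpin that stays largely inside the cell and is strongly inducible in monocytes and skin. It was the least abundant of the 5, at 4.32, 4.53 and 3.75 CPM in control on 63 to 103 reads. In shRRM2 it was at 7.55, 8.94 and 7.92 CPM on 119 to 155 reads, and in shRRM2/shp16 at 22.2, 24.4 and 25.2 CPM on 420 to 490 reads. The groups were separate in spite of the low counts, and the scatter inside a group was wider than for the other genes, with a coefficient of variation of 6.46% to 9.53% against at most 3.72% for them. The log2 fold change was 0.95 ± 0.12 in shRRM2 against control (adjusted p 5.1e-09) and 1.55 ± 0.09 in shRRM2/shp16 against shRRM2 (adjusted p 9.6e-20). Against control the doubly targeted cells differed by 2.50 ± 0.10 (adjusted p 8.3e-26), a change exceeded by 193 of the 16561 tested genes (1.17%). SERPINB10 overlaps SERPINB2 on the same strand and had 0 to 4 reads per library.

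**Figure D2:**
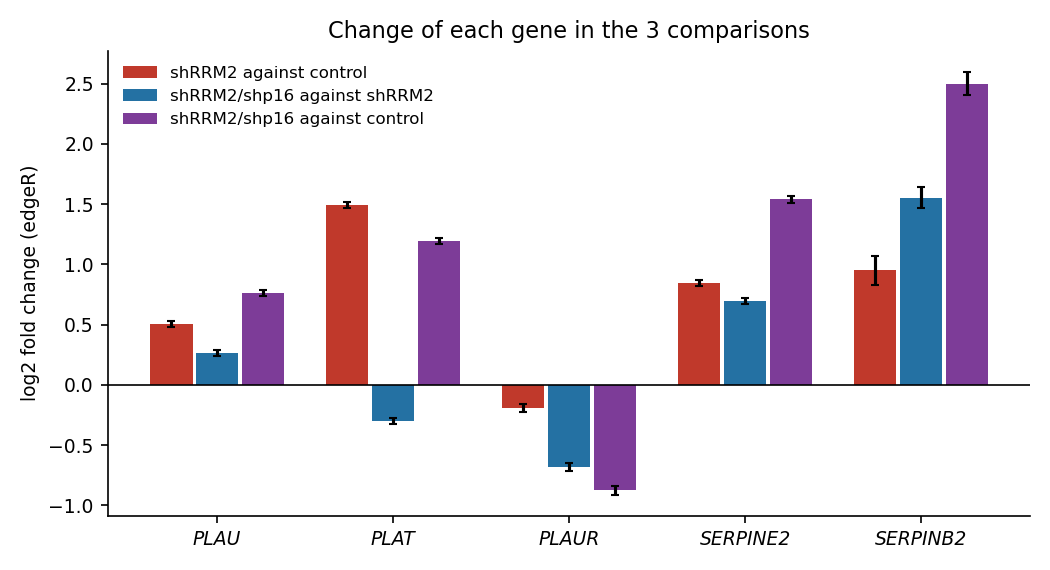
Fitted log2 fold change (edgeR, whiskers are SE) of each gene in the 3 comparisons, from one fit over 9 libraries. PLAT changed sign between shRRM2 against control (1.49) and shRRM2/shp16 against shRRM2 (-0.30), while PLAUR lay below 0 in all 3 comparisons and PLAU, SERPINE2 and SERPINB2 above 0.

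To compare levels between genes, CPM was divided by the gene length that the authors' values imply, which gives reads per kilobase on the same scale (RPKM). In control the order was PLAU at 198 to 201 RPKM over the 3 libraries, PLAT at 59.1 ± 1.83 RPKM (mean ± SD, n = 3), PLAUR at 37.3 ± 0.81, SERPINE2 at 35.5 ± 0.51 and SERPINB2 at 1.53 ± 0.15 RPKM. PLAUR and SERPINE2 were close neighbours, with libraries of 36.8 to 38.2 and 35.2 to 36.1 RPKM. In shRRM2 SERPINE2 stood above PLAUR, at 62.7 to 64.7 against 32.6 ± 0.54 RPKM, and the order was otherwise the same, with PLAU at 283 ± 6.11 and PLAT at 166 ± 2.57 RPKM. In shRRM2/shp16 the order was that of shRRM2, with PLAU at 340 ± 3.73 RPKM, PLAT at 135 ± 1.04, SERPINE2 at 103 ± 0.98, PLAUR at 20.3 ± 0.76 and SERPINB2 at 8.70 ± 0.56 RPKM. The libraries of neighbouring genes in each order did not overlap. The implied lengths, from 2748 bases for SERPINB2 to 8891 for SERPINE2, equal the summed length of all exons annotated for each of the 5 genes in GENCODE release 29, and a gene whose transcripts in these cells use fewer exons is understated.

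The order of PLAU, PLAT and SERPINE2 was not the same in the authors' own group values. The part of gene length in this was not tested. The group FPKM values in the authors' deposited table, which are also per length, put PLAT first in shRRM2 at 554, followed by SERPINE2 at 341, PLAU at 309 and PLAUR at 146. In shRRM2/shp16 the authors' deposited table has SERPINE2 first at 541, then PLAT at 472, PLAU at 378 and PLAUR at 91.7. PLAU was thus first by RPKM and the third of the 5 by FPKM in both groups. SERPINB2 was the lowest on both scales, with 6.65 and 19.7 FPKM in the authors' deposited table, and PLAUR was next above it on both scales in these groups.

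Ratios of these RPKM values inside each library show how members moved against each other and do not depend on the scaling of libraries, but their level depends on the gene lengths. PLAT over PLAU was 0.304, 0.290 and 0.292 in control, 0.589, 0.582 and 0.590 in shRRM2, and 0.395, 0.398 and 0.400 in shRRM2/shp16. The share of tPA message relative to uPA message was therefore highest in shRRM2 and intermediate in the doubly targeted cells. PLAU over PLAUR was 5.26, 5.39 and 5.46 in control, 8.41, 8.79 and 8.83 in shRRM2, and 16.2, 17.0 and 16.9 in shRRM2/shp16, so ligand message gained on receptor message in both steps. SERPINE2 over SERPINB2 was 22.5, 21.9 and 25.8 in control and 23.2, 19.9 and 21.8 in shRRM2, which overlapped, and 12.7, 11.6 and 11.4 in shRRM2/shp16. Of the 9 differences between groups, 8 had no overlap and a two-sided exact permutation p of 0.1, the smallest that 3 against 3 libraries can give (0.112 after Benjamini-Hochberg adjustment over 9 tests). The ninth, SERPINE2 over SERPINB2 in shRRM2 against control, had an exact permutation p of 0.4. How often ratios of other gene pairs lacked overlap was not counted, so the 8 do not set these ratios apart. Ratios of the FPKM values in the authors' deposited table had other levels and the same direction from shRRM2 to shRRM2/shp16. PLAT over PLAU went from 1.80 to 1.25 there, PLAU over PLAUR from 2.11 to 4.13 and SERPINE2 over SERPINB2 from 51.2 to 27.5.

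**Figure D3:**
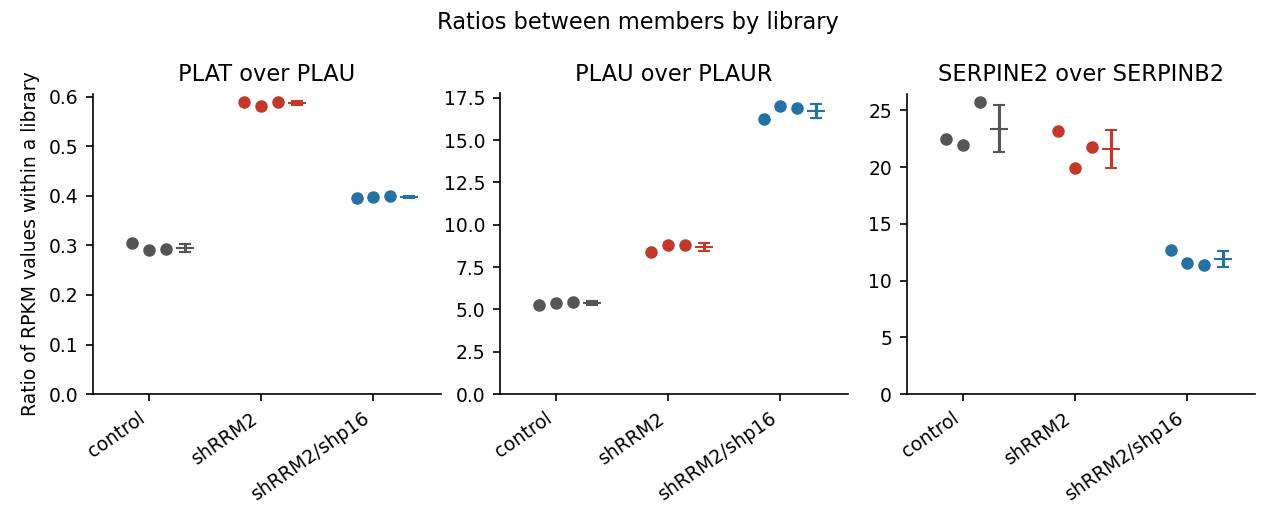
Ratio of RPKM values of 2 genes inside each library (linear axis from 0); points are libraries, and the mark beside them is the group mean with SD (n = 3). PLAT over PLAU peaked in shRRM2 at 0.582 to 0.590, PLAU over PLAUR rose from 5.26 to 5.46 in control to 16.2 to 17.0 in shRRM2/shp16, and SERPINE2 over SERPINB2 was lower in shRRM2/shp16 than in the other groups.

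Other genes of the system were examined from a list of 17, of which 13 were tested. Plasminogen itself (PLG), made mainly by liver, was not tested and had 2 to 4 reads per library in control, 9 to 14 in shRRM2 and 1 to 5 in shRRM2/shp16. The plasmin inhibitor SERPINF2 had 1 read in all libraries together, SERPINA5 had 4 and CPB2 had 0. In shRRM2 against control 6 of the 13 were higher, 6 lower and 1 not called, with a median log2 fold change of -0.07 against 0.00 over all tested genes. In shRRM2/shp16 against shRRM2 5 were higher and 7 lower (median -0.08, against 0.01 over all genes). In shRRM2/shp16 against control 6 were higher and 4 lower (median 0.03, against 0.01). The list as a whole was thus split in direction in all 3 comparisons. Calls in either direction covered 60.9%, 61.1% and 62.4% of all tested genes in these comparisons. Those called lower were 31.8% in the first and 29.1% in the second. The counts of this list were not tested against these shares.

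The list genes S100A10, ENO1, PLGRKT and ANXA2, which can dock plasminogen at the surface, were each lower in shRRM2 than in control. For ANXA2 the log2 fold change was only -0.21. They were not a separate list, and 31.8% of all tested genes were called lower in this comparison. S100A10, an annexin partner that binds plasminogen, fell from 8557 to 11661 reads per control library to 4511 to 4965 (501 to 286 CPM, log2 fold change -0.81), ENO1, a glycolytic enzyme also found at the surface, had a log2 fold change of -0.76, and the plasminogen receptor gene PLGRKT one of -0.49. ANXA2, the annexin that carries S100A10, fell mainly in the second step, from 1468 ± 12.7 in shRRM2 to 762 ± 9.76 CPM in shRRM2/shp16 (-0.95, adjusted p 5.5e-32). Its level in control was 1698 ± 44.4 CPM. Against control in the doubly targeted cells ANXA2, S100A10 and ENO1 had the lowest values of the list, at -1.16, -0.89 and -0.84. ANXA2 and ENO1 have pseudogene copies that could take some of their reads, so their levels are uncertain.

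The inhibitors TFPI2, A2M and SERPINI1 rose in shRRM2 over control, and in the second step TFPI2 rose while A2M and SERPINI1 fell. They were named because they had the 3 highest log2 fold changes of the list in shRRM2 against control. Their shared rise there follows from that choice, and they were not a separate list. In that comparison 60.9% of all tested genes were called in either direction. TFPI2, a secreted Kunitz-type inhibitor of plasmin, rose in both steps as SERPINB2 did, from 344 ± 9.37 to 699 ± 24.3 and then 2307 ± 27.6 CPM, with log2 fold changes of 1.02 and 1.72. A2M, the broad protease trap alpha-2-macroglobulin, rose from 21.6 ± 0.48 to 65.9 ± 2.14 CPM in shRRM2 (1.61) and was at 19.7 ± 0.45 CPM in shRRM2/shp16 (-1.75). SERPINI1, neuroserpin, an inhibitor of tPA, went the same way at low levels, from 2.36 ± 0.17 to 4.31 ± 0.41 and 2.00 ± 0.18 CPM (0.87, then -1.10). HGF, a growth factor whose precursor uPA can cleave, fell from 110 ± 3.24 to 82.3 ± 1.84 CPM in shRRM2 and rose to 352 CPM in shRRM2/shp16 (6567 to 7140 reads), a log2 fold change of 2.10 (adjusted p 5.2e-40) that was the highest of the list in that step. VTN, vitronectin, a matrix ligand of uPAR, had a log2 fold change of 1.19 ± 0.34 there (adjusted p 0.0021) on 7 to 28 reads per library.

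Of 19 other serpins, 8 were tested, and 11 had too few reads. In shRRM2 against control 2 were higher and 4 lower (median log2 fold change -0.16, against 0.00 over all tested genes). In shRRM2/shp16 against shRRM2 3 were higher and 3 lower (0.00, against 0.01). In shRRM2/shp16 against control 3 were higher and 5 lower (-0.20, against 0.01). Of all tested genes 31.8% were called lower in the first of these comparisons and 29.1% in the second. In the third 62.4% were called in either direction. The counts of this list were not tested against these shares. The clearest changes were in SERPINB7 and SERPINF1. SERPINF1, which encodes the secreted factor PEDF, was at 38.4 ± 0.44 CPM in control, 19.5 ± 1.34 in shRRM2 and 47.3 ± 0.65 in shRRM2/shp16, with log2 fold changes of -0.98 and then 1.28. SERPINB1, an intracellular inhibitor of neutrophil proteases, was lower in shRRM2 (-0.31) and higher with the p16 hairpin (0.72). SERPINH1, the collagen chaperone HSP47, had a log2 fold change of 0.01 in shRRM2 (adjusted p 0.75) and was lower once the p16 hairpin was added (-0.41). SERPINB6 was lower in shRRM2 (-0.25) and SERPINB9 lower with the p16 hairpin (-0.21).

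SERPINB2 lies in a cluster of 10 of the clade B serpin genes examined on chromosome 18. Both tested neighbours rose with it in the first step, and they parted in the second. SERPINB7, whose gene (63752935 to 63805376, plus strand) ends 66.3 kb before that of SERPINB2, was at 14.0 ± 1.72 CPM in control, 24.2 ± 1.36 in shRRM2 and 2.57 ± 0.43 in shRRM2/shp16. It rose in the first step (0.79 ± 0.08, adjusted p 2.5e-11) and fell in the second (-3.23 ± 0.11, adjusted p 3.7e-27), where SERPINB2 rose by 1.55. SERPINB8, whose gene starts 66.0 kb after that of SERPINB2, rose a little in both steps, by 0.25 and 0.20. The other 7 genes of the cluster had between 0 and 17 reads over the 9 libraries together and were not tested.

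Surface partners of uPAR were examined from a list of 12, of which 9 were tested. In shRRM2 against control 4 were higher and 4 lower (median log2 fold change 0.06, against 0.00 over all tested genes). In shRRM2/shp16 against shRRM2 2 were higher and 5 lower (-0.27, against 0.01). In shRRM2/shp16 against control 4 were higher and 5 lower (-0.27, against 0.01). Of all tested genes 31.8% were called lower in the first of these comparisons and 29.1% in the second. In the third 62.4% were called in either direction. The counts of this list were not tested against these shares. The integrin subunits ITGA3 and ITGA5, parts of laminin and fibronectin receptors, fell in the second step, as PLAUR did. ITGA3 went from 255 ± 9.27 to 77.4 ± 1.80 CPM (-1.72) and ITGA5 from 1294 ± 35.5 to 590 ± 15.4 CPM (-1.13). In the first step neither fell as PLAUR did. ITGA5 was higher in shRRM2 than in control (0.28), and ITGA3 was not called (0.06, edgeR adjusted p 0.072). ITGAV, a subunit of vitronectin receptors, rose in both steps, from 233 ± 8.06 to 306 ± 5.58 and 354 ± 8.17 CPM. ITGB5, one of its partner subunits, rose in shRRM2 (0.98) and fell back with the p16 hairpin (-0.68). CAV1, a caveolar scaffold protein, fell in both steps (-0.64, then -0.44). The receptor EGFR was lower in shRRM2 (-0.21) and higher in shRRM2/shp16 than in shRRM2 (0.47), and PDGFRB was lower in shRRM2 (-0.31).

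**Figure D4:**
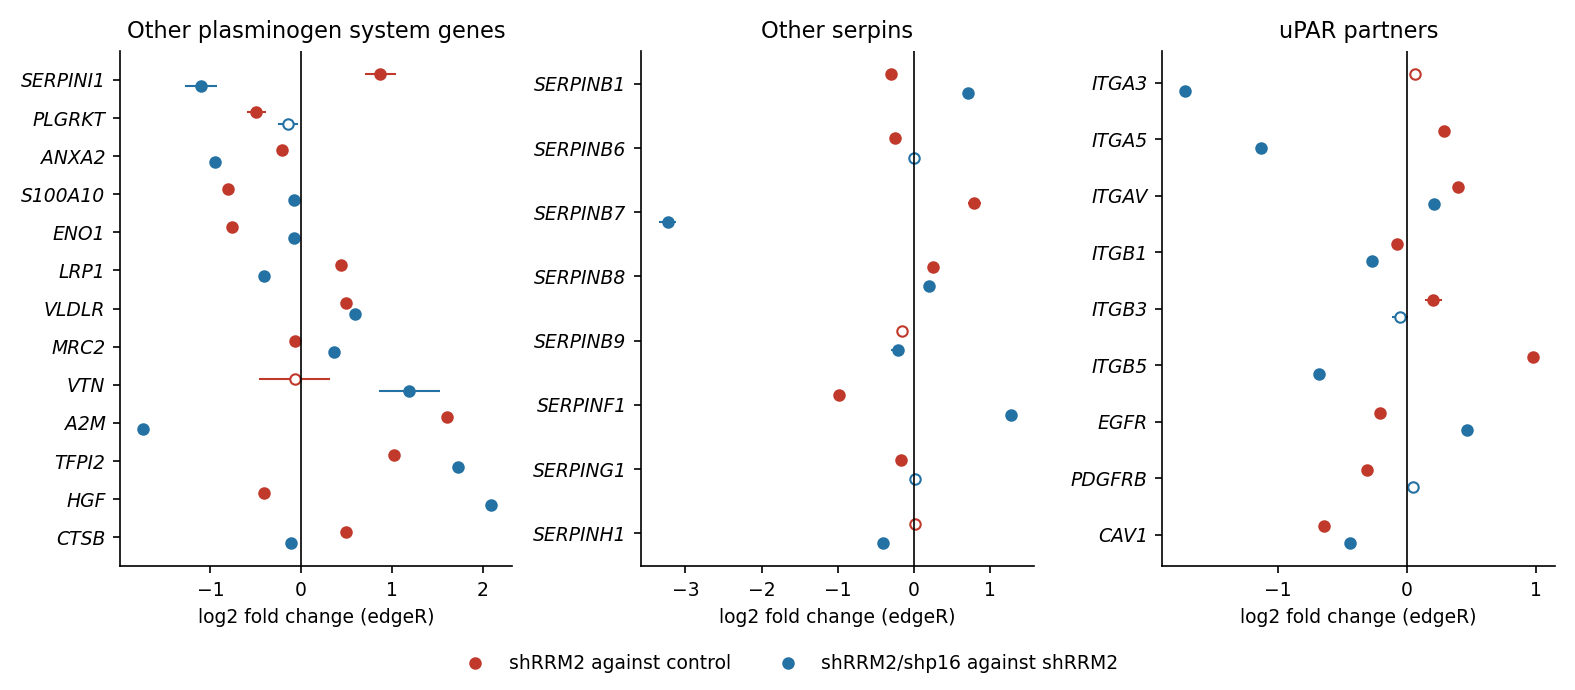
Fitted log2 fold change (edgeR, whiskers are SE) of the tested genes of the 3 lists, in red for shRRM2 against control and in blue for shRRM2/shp16 against shRRM2; filled points passed an adjusted p of 0.05 and open points did not. TFPI2 lay above 0 in both comparisons, A2M and SERPINB7 changed sign, and ITGA3 and ITGA5 lay below 0 in the second.

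For each of the 5 genes, the 3 genes with the most similar pattern were found among 11380 well-counted genes with a symbol. The measure was the root mean square difference of centred log2 CPM over the 9 libraries, and the libraries share their groups, so that these are descriptions. PLAU was followed most closely by SARAF, a regulator of calcium entry, by the bicarbonate transporter SLC4A4 and by the collagen-binding integrin subunit ITGA1, with differences of 0.04 in each case. PLAT was nearest to ALS2CL (0.09), to the retinal reductase DHRS3 (0.09) and to NCKAP5 (0.10), and all 3 of them had a smaller decrease than PLAT in the second step, by -0.15 to -0.19. PLAUR was nearest to the calpain subunit CAPN2 (0.03), to LRRC59 (0.03) and to the actin-associated protein gene MPRIP (0.04). SERPINE2 was nearest to TRANK1 (0.05), to the calcium pump gene ATP2B1 (0.05) and to RP3-368A4.5 (0.07). SERPINB2 had less close neighbours, which were the amino acid transporter SLC6A15 (0.14), TFPI2 (0.15) and the keratinocyte growth factor gene FGF7 (0.15).

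**Figure D5:**
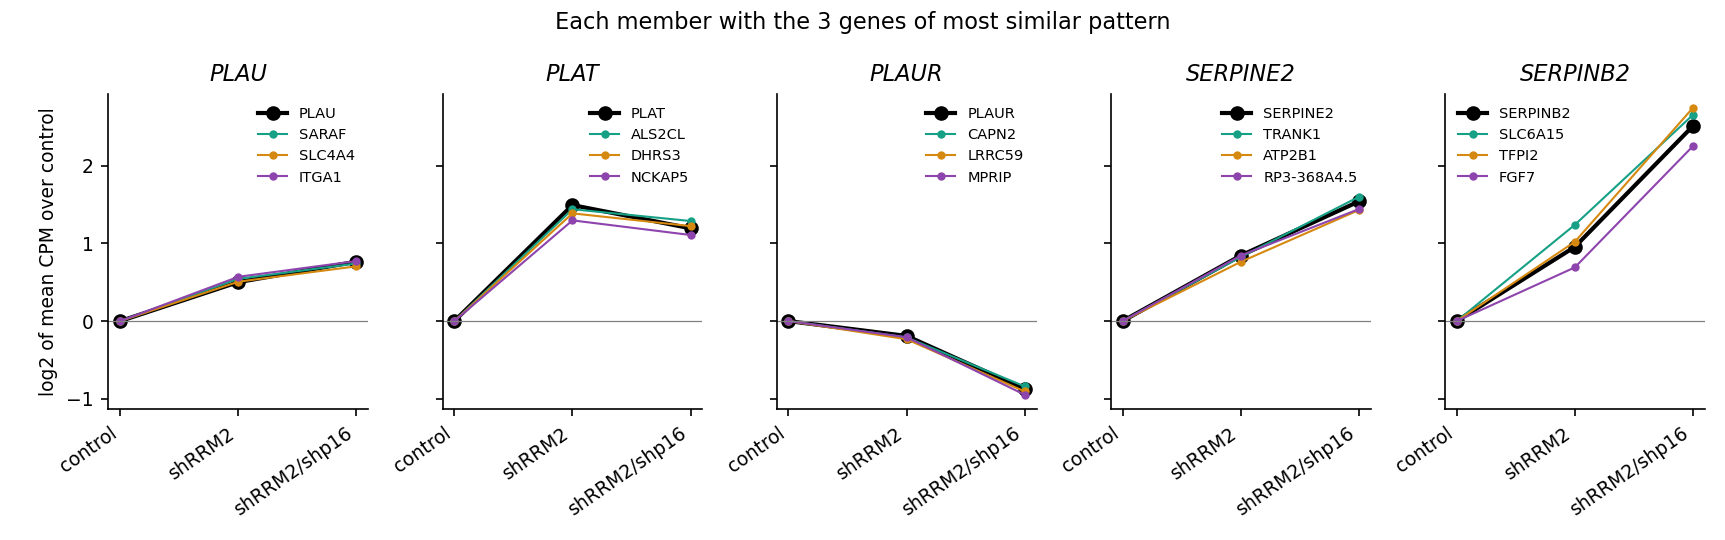
Log2 of the group mean CPM over the control mean for each of the 5 genes (black) and its 3 most similar genes (colours); the lines join groups only to guide the eye, since the groups are no series. The neighbours of PLAU, PLAUR and SERPINE2 differed from them by 0.03 to 0.07 (root mean square over 9 libraries) and those of SERPINB2 by 0.14 to 0.15.

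The state of the libraries was as follows. Gene counts ranged from 15770895 to 24873291 per library. RRM2 was at 485 ± 5.23 CPM in control, 62.1 ± 1.86 in shRRM2 and 177 ± 3.00 in shRRM2/shp16, and CDKN2A at 6.02 ± 0.11, 6.50 ± 0.46 and 4.28 ± 0.32 CPM, so that RRM2 (log2 fold change 1.51) as well as CDKN2A (-0.60) differed between shRRM2 and shRRM2/shp16. The CDKN2A count covers p16 and the overlapping ARF transcript, on 79 to 142 reads per library. For its fall from shRRM2 to shRRM2/shp16 the authors' deposited table has -0.55 (q-value 0.237) and makes no call. CDKN2A was not called in shRRM2 against control (0.11, edgeR adjusted p 0.43). All 8 fibroblast markers were detected, with a summed level of 26871 to 27730 CPM in control, 26263 to 27053 in shRRM2 and a lower 22619 to 23212 in shRRM2/shp16. COL1A1 alone made up 12707, 13452 and 9330 CPM on average. In shRRM2 against control 2 markers were called higher (COL1A2 0.18, COL1A1 0.08) and 5 lower, with DCN at -0.71 and VIM at -0.60. The share of all tested genes called lower in that comparison was 31.8%. Against control in shRRM2/shp16 3 were higher, with PDGFRA at 1.43, and 4 lower, with VIM at -1.32 and THY1 at -1.07. The share of all tested genes called lower there was 32.4%. The markers were split in shRRM2/shp16 against shRRM2, with 2 higher (PDGFRA 1.92, COL3A1 1.13), 4 lower and 2 not called. Of all tested genes 31.9% were higher and 29.1% lower there. SERPINB2 and PLAUR are also macrophage genes, and the 6 macrophage and leukocyte markers summed to 4.48 to 5.03 CPM in control, 5.97 to 7.12 in shRRM2 and 4.62 to 5.65 in shRRM2/shp16, with PTPRC at 6 reads over all libraries. LYZ was higher in shRRM2 than in control (log2 fold change 0.93, edgeR adjusted p 3.8e-04), on 22 to 47 reads per library. CD68 and ITGAX were not called there. CD14, which was not tested, had 3 reads per control library and 6 to 12 in shRRM2. The 5 epithelial markers summed to 23.9 to 25.2, 12.1 to 13.4 and 3.29 to 5.21 CPM in the 3 groups, of which CLDN4 made up 22.9, 10.7 and 2.37 CPM on average, with KRT5 at 0 reads. The 4 endothelial markers summed to 2.56 to 3.35, 2.48 to 3.75 and a higher 5.23 to 5.38 CPM, and KDR and VWF were called higher in shRRM2/shp16 than in control (edgeR adjusted p 3.0e-05 and 0.025). PECAM1 was not called in that comparison (edgeR adjusted p 0.88), and CDH5 had 2 reads over all libraries. Of the uniquely placed reads, those that hit no annotated gene were 17.6% to 18.9% in control, 27.7% to 28.8% in shRRM2 and 23.5% to 24.4% in shRRM2/shp16. The part of these marker sums and shares in the changes above was not tested.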

How the data were processed

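The authors deposited 9 files of read counts by Ensembl gene ID, in the layout of HTSeq, and these were the basis of every test. The submitters' processing notes list TopHat2 2.0.9, Cufflinks 2.0.2, Cuffdiff and the build GRCh38, without roles. Which annotation release and strand setting served for counting is not given in the sources used here. The authors' deposited table also holds a log2 RPKM value per library and, for shRRM2/shp16 against shRRM2, group FPKM values, a log2 fold change, a test score, a p-value and a q-value, per the file headers. Gene lengths were recovered from the log2 RPKM columns, 8 of which match the counts. The remaining one, for shRRM2 replicate c, departs from its counts (5.55% of 10810 genes within 1% of the common length) and was not used for levels. There were 0 columns without a sample.

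Tally lines that name no gene stayed out of library sizes. Counts were tested across all genes with edgeR 4.0.16 in R 4.3.3 (filterByExpr, TMM, glmQLFit, glmQLFTest, a coefficient per group over 9 libraries, two-sided, Benjamini-Hochberg over 16561 genes, threshold 0.05). Each SE is the absolute log2 fold change divided by the root of F. Positions came from GENCODE release 29 on GRCh38. Named list genes were the up to 3 highest and 3 lowest called log2 fold changes per list and comparison. Similar genes needed an average log2 CPM of at least 2 (prior count 2). The 5 genes and the lists were chosen with earlier results of these data known, so list counts are descriptions. Intervals by SE cover library spread only, and amplified reads without molecular identifiers are not independent molecules. Alternatives were RLE factors, DESeq2 1.42.0, no filter on low counts, at least 10 counts in every library, only the 6 libraries compared, a replicate block and leaving out each library.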

Additional observations from a re-analysis of the deposited data

How the results depend on the processing

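All 5 genes kept their direction and their side of the threshold in all 3 comparisons under each of the 12 alternatives run per comparison. The closest to the threshold was PLAUR in shRRM2 against control, with log2 fold changes of -0.23 to -0.16 and adjusted p-values up to 1.6e-04. PLAT in shRRM2/shp16 against shRRM2 stayed between -0.31 and -0.28, and SERPINB2 in shRRM2 against control, which rests on the fewest reads, at 0.88 or above. Counts of genes called over the whole table were lowest with DESeq2, at 8827, 8906 and 9222 in the 3 comparisons, and stayed within 1.5 times the main counts of 10079, 10116 and 10339. Of the 17 listed plasminogen system genes 9 to 13 were called over the comparisons and alternatives. The same replicate letter did not mark shared deviations (correlations of -0.02 to 0.05 over genes for the 9 pairs of libraries with a common letter). With the letter as a replicate block 10101, 10134 and 10388 genes were called, PLAT in shRRM2/shp16 against shRRM2 was at -0.30, and no call of the 5 genes changed. Depth limits SERPINB2 most among the 5 genes, with 63 to 490 reads per library. Plasminogen, SERPINF2 and SERPINA5 had 54, 1 and 4 reads over all libraries and were untested. Most clade B serpins were also untested, with 0 to 17 reads each.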
